A study of Canis lupus familiaris with 36 samples.

Results

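The mature miRNAs cfa-miR-202 and cfa-miR-187 were examined in small RNA sequencing of canine cardiac hemangiosarcoma (HSA), a malignant tumor of endothelial cells. These 2 of the 453 mature miRNAs in the table were chosen by their read counts in these libraries, which are near 0 in cardiac control tissue and high in HSA tissue, so the difference between HSA and control is given as a description with no test. The libraries came from formalin-fixed, paraffin-embedded (FFPE) heart tissue of 6 dogs with cardiac HSA and of 6 dogs that died of causes other than cancer. The HSA dogs had survived for some days after discharge and had died of the tumor, and all tissue came from the archive of 1 diagnostic laboratory. Per the paper, which pools heart and spleen here, the tumor dogs were significantly older than the controls. It also did not leave out dogs with earlier chemotherapy. Neither age nor treatment is accounted for in the comparison. RNA was extracted from tissue sections, with no isolation of tumor cells described, so tumor, heart muscle and blood can be mixed in a library. Library titles and the treatment field name opposite conditions for all 12 cardiac libraries, and the titles were followed, as in the choice of the members. Splenic libraries were not analysed here. Both miRNAs were on the RT-qPCR panel, a second measure of RNA levels, that the paper also ran on cardiac samples. Neither is among the miRNAs it then lists as dysregulated in cardiac HSA.

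A miRNA is a short RNA that guides a silencing complex to messenger RNAs with matching sites, mainly through the seed near its 5′ end. MiR-202 is known as a miRNA of the gonads, where it is produced by Sertoli cells of the testis and by cells of the ovarian follicle. MiR-187 is known from monocytes, in which interleukin-10 induces it and it represses TNF, and from pancreatic islets. Neither is a typical miRNA of heart muscle or of endothelium. In the RefSeq annotation of the dog assembly UU_Cfam_GSD_1.0, the MIR202 precursor of 71 bases overlaps no other listed gene and lies between the coding genes VENTX and ADAM8. The MIR187 precursor of 68 bases also overlaps no listed gene and lies between C7H18orf21 and GALNT1. The count table has 1 entry for each miRNA and names no arm of the hairpin.

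Control libraries had total counts of 6999830 to 11668822, and HSA libraries of 2018959 to 8999025. Levels are given as CPM, read counts scaled to the library total, after TMM scaling, a correction for differences in composition between libraries. HSA replicate 2 had the highest scaling factor, 1.97, against 0.769 to 1.17 in the other libraries. Summed CPM of the 8 heart and skeletal muscle miRNAs was 189921 to 271362 in control. It was 190256 and 233009 in HSA replicates 1 and 6, within the range of control, but 21821 in replicate 2, 942 in replicate 3, 40090 in replicate 4 and 94724 in replicate 5. MiR-126, the best known endothelial miRNA, had 2371 to 4213 CPM in control libraries, compared with 944 to 4295 CPM in HSA (log2 fold change -0.45, standard error 0.37, adjusted p = 0.328 in edgeR's quasi-likelihood test). The detection floor of each library was set at 3 counts. It corresponds to 0.306 to 0.482 CPM in the control libraries and, because most HSA libraries are shallower, to 0.332 to 1.35 CPM in HSA. Intervals and floors cover counting error only, since PCR copies are not independent molecules.

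Cfa-miR-202 was abundant in HSA replicates 5 and 2 and scarce in the other 4 tumors. In control replicates 1 to 6 it had 0, 6, 5, 5, 0 and 3 counts, which are 0, 0.611, 0.539, 0.647, 0 and 0.482 CPM. In HSA replicates 1 to 6 it had 6, 6975, 8, 0, 22290 and 40 counts, which are 2.69, 773, 2.49, 0, 4179 and 4.69 CPM. The 2 groups overlapped, because HSA replicate 4 had no read in a library with a floor of 0.663 CPM. HSA replicates 1, 3 and 6 had values above the highest control library. Their 95% Wilson intervals, which do not cover the spread between dogs, were 1.23 to 5.87, 1.26 to 4.91 and 3.45 to 6.39 CPM. In the 4 control libraries with a read the upper limits were 1.26 to 1.51 CPM. The intervals of HSA replicates 1 and 3 thus overlapped those of control, and only that of replicate 6 lay above them. From the top of the order down, HSA replicate 5 was 5.41-fold above replicate 2, and replicate 2 was 165-fold above replicate 6. Among the mature miRNAs of its own library, miR-202 ranked 31 of 282 in HSA replicate 5 and 60 of 278 in replicate 2, compared with ranks 198 to 217 in HSA replicates 1, 3 and 6 and 230 to 232 in the 4 control libraries with a read.

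Cfa-miR-187 was detected above the floor in the same 2 libraries and in no other. It had 0 counts in all 6 control libraries, with floors of 0.306 to 0.482 CPM and upper 95% Wilson limits of 0.391 to 0.618 CPM. In HSA replicates 1 to 6 it had 0, 184, 0, 3, 296 and 0 counts. The levels were 55.5 CPM in replicate 5 (95% Wilson interval 49.5 to 62.2), 20.4 CPM in replicate 2 (17.6 to 23.5) and 0.663 CPM, at the floor, in replicate 4. HSA replicates 1, 3 and 6 had no read, at floors of 1.35, 0.934 and 0.352 CPM, all well under the level of replicate 2. Against the highest floor among the 10 libraries at or under it, replicate 2 was at least 15.1-fold higher and replicate 5 at least 41.2-fold higher. MiR-187 ranked 153 of 282 in HSA replicate 5 and 179 of 278 in replicate 2.

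**Figure D1:**
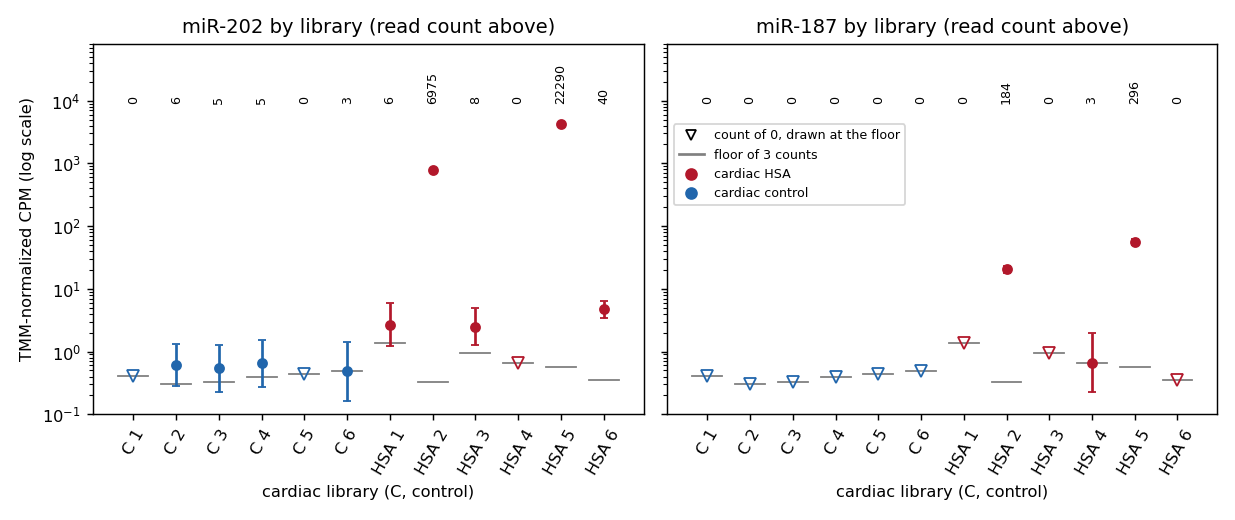
TMM-normalized CPM on a log scale of miR-202 (left) and miR-187 (right) in the 6 control and 6 HSA libraries, with the read count printed above each library. Points have 95% Wilson intervals, grey lines mark the floor of 3 counts, and open triangles are counts of 0 drawn at the floor. HSA replicates 2 and 5 stand at 773 and 4179 CPM of miR-202 and at 20.4 and 55.5 CPM of miR-187, and every other library is under 5 CPM.

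The group difference of each miRNA was set by these libraries. Mean miR-202 was 827 ± 1671 CPM in HSA and 0.380 ± 0.300 CPM in control (SD, n = 6 each), a log2 ratio of means of 11.09, and the SD in HSA exceeded the mean. The medians were 3.69 and 0.511 CPM, a log2 ratio of 2.85, which is a 7.23-fold difference in place of a 2176-fold one. The control level rests on 19 reads, with 3 of the 6 control libraries at or under the floor. Both folds therefore divide by a level near the floor. With a control mean under the mean floor set to that floor, the log2 ratio of means was 11.04. Without HSA replicate 5 the log2 ratio of means was 8.68. Mean miR-187 was 12.8 ± 22.4 CPM in HSA (SD, n = 6), at least 32.6-fold higher than the control floor, a lower bound of 5.03 on the log2 scale, and without HSA replicate 5 the bound was 3.42. The median HSA library was under the floor for miR-187, so no ratio of medians is given. Of all reads of miR-202 in the 12 libraries, HSA replicates 2 and 5 held 29265 of 29338, or 99.8%. For miR-187 they held 480 of 483, or 99.4%.

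Neither miRNA passed the filter on low counts of the comparison between HSA and control, which asks for a minimum level in at least 6 libraries, so 0 of the 2 were among the 225 miRNAs tested. Of the 225, 42 or 18.7% were called higher in HSA and 16 or 7.11% lower, where a call needs a log2 fold change of 1 or more in size and an adjusted p below 0.01 (Benjamini-Hochberg). With scaling by library size only, 68 were called higher and 5 lower. In 34 of the 225, or 15.1%, all 6 HSA values were above all 6 control values. MiR-202 and miR-187 do not have this separation, because 1 and 4 of the 6 HSA libraries were at or under the floor.

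Levels of the 2 miRNAs were not in a fixed ratio. MiR-202 had 37.9 reads for each read of miR-187 in HSA replicate 2 (95% counting interval 32.7 to 43.9) and 75.3 in replicate 5 (67.1 to 84.5). This ratio does not depend on the scaling of the libraries, and it was 1.99 times as high in replicate 5 (1.65 to 2.39). The interval compares these 2 libraries and says nothing of other tumors. Between the same libraries, miR-202 differed 5.41-fold and miR-187 2.72-fold with TMM, and 3.22-fold and 1.62-fold with scaling by library size only.

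Most of the HSA level of both miRNAs was in replicates 2 and 5. Of the summed HSA level, these 2 libraries held 99.8% for miR-202 and 99.1% for miR-187. The median of the tested miRNAs was 31.2% and their highest value was 96.1%, for miR-329b. With values under a library's floor set to that floor, the share was 99.8% for miR-202, and for miR-187 it was 95.8%, the same as the 95.8% of miR-329b. The filter itself removes miRNAs found in few libraries, so the untested ones were counted as well. Among the 264 miRNAs with a mean over 1 CPM in HSA, miR-539 and miR-758 were the other two that reached the share of miR-187, with means of 1.87 and 1.48 CPM. The libraries were picked because the 2 members are high there, so these shares are a description.

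**Figure D2:**
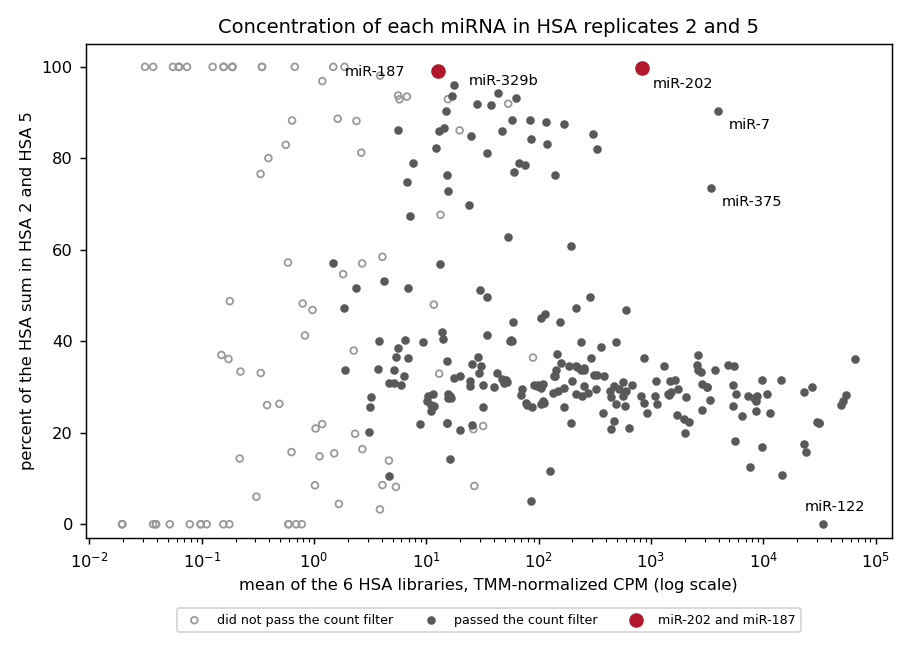
Mean TMM-normalized CPM over the 6 HSA libraries (log scale) against the percent of the summed HSA level that HSA replicates 2 and 5 hold, for each miRNA with a read in HSA. Filled points passed the count filter and open ones did not. MiR-202 at 99.8% and miR-187 at 99.1% lie at the top edge, at higher mean levels than the other points there, and the tested miRNAs have a median of 31.2%.

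A total of 45 of the 320 miRNAs with a read, or 14.1%, were higher in both of these HSA libraries than in all 10 others, a count made after the values were seen that was 63 with scaling by library size only. With values under a library's floor set to that floor, 43 of the 45 were still higher there. On the same basis, the lower of the 2 libraries was 165-fold above the highest of the 10 others for miR-202 and at least 15.1-fold for miR-187. MiR-7, known from neurons and endocrine cells, followed at 9.16-fold. MiR-7 had 7606 CPM in HSA replicate 2 and 13864 CPM in replicate 5, compared with 252 to 830 CPM in the other HSA libraries and 135 to 238 CPM in control. Unlike the 2 members, miR-7 was present in every library. Its log2 fold change between the groups was 4.51 (standard error 0.98, adjusted p = 0.00384 from edgeR), and the call was lost without control replicate 1, 2, 4 or 5, with adjusted p up to 0.0123. MiR-432 and miR-380 came next, at 7.35 and 7.09-fold. The 45 include miR-432 and the other miRNAs named below from the imprinted DLK1-DIO3 cluster. MiRNAs of this cluster are transcribed together, so the 45 are not independent examples.

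The miRNAs whose pattern over the 6 HSA libraries was most like that of each member were named by Pearson's r on log2(CPM + 1), among the 225 that passed the filter. The 6 libraries fall into 2 high and 4 low ones, so r mainly reflects a rise in HSA replicates 2 and 5, and it is given without a p. For miR-202 the 5 highest were miR-329b (r = 0.980), miR-487b (0.980), miR-411 (0.970), miR-299 (0.967) and miR-889 (0.967). For miR-187 they were miR-411 (r = 0.980), miR-329b (0.979), miR-7 (0.977), miR-432 (0.953) and miR-299 (0.947). The r exceeded 0.9 for 18 of the 225 miRNAs with miR-202 and for 15 with miR-187, and the median r over the 225 was 0.0058 and 0.0160. Spearman's rho, which follows only the order, was between 0.486 and 0.943 for these pairs. Apart from miR-7, all of them belong to the large imprinted DLK1-DIO3 cluster, whose miRNAs are transcribed together, so they are not independent examples.

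These cluster miRNAs had a higher level in control heart than the members. MiR-329b had 5.20 to 10.2 CPM in control, 45.7 and 55.7 CPM in HSA replicates 2 and 5, and 0.622 to 1.35 CPM in the other HSA libraries. It was lower in the 4 low tumors than in any control library. MiR-487b had 17.1 to 34.2 CPM in control, 158 and 289 CPM in HSA replicates 2 and 5, and 5.75 to 24.7 CPM in the others. MiR-411 had 35.5 to 68.7 CPM in control, 106 and 173 CPM in the 2 high libraries, and 17.4 to 27.7 CPM in the others. None of the 6 cluster miRNAs named here was called between HSA and control, with adjusted p from 0.0987 for miR-889 to 0.735 for miR-411.

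**Figure D3:**
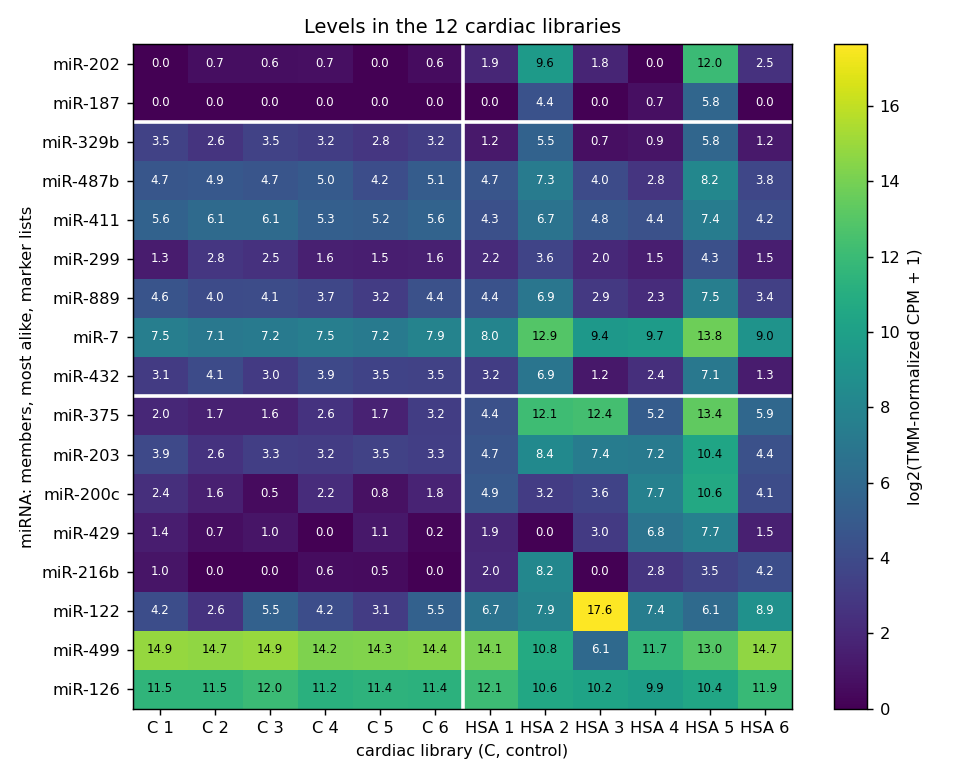
Log2(TMM-normalized CPM + 1) in the 6 control (C) and 6 HSA libraries for the 2 members (top), the miRNAs most like them (middle) and 8 miRNAs of the marker lists (bottom), with the value in each cell. The top and middle rows are highest in HSA 2 and HSA 5, the epithelial miR-200c and miR-429 are highest in HSA 5 and HSA 4, and the muscle miRNA miR-499 is lowest in HSA 3.

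Lists of miRNAs typical of tissues or cell types, and the let-7 superfamily, were compared across the same libraries. The closest in pattern was the endocrine and pancreatic list, whose sum was 138 to 247 CPM in control, 12536 and 24363 CPM in HSA replicates 2 and 5, and 275 to 5977 CPM in the other HSA libraries. Its 2 tested members, miR-375 and miR-7, were both called higher, and 1 to 3 members were called when 1 library was left out. MiR-375, a miRNA of pancreatic islets and other endocrine cells, had 4486, 5292 and 10488 CPM in HSA replicates 2, 3 and 5. The high level of miR-375 in replicate 3 was not shared by miR-202, with 2.49 CPM, or miR-187, with 0. The acinar pancreas miRNAs miR-216a, miR-216b and miR-217 were high in HSA replicate 2, at 73.9, 285 and 85.1 CPM. In replicate 5, where both members were highest, miR-216a had no read and miR-216b and miR-217 had 10.3 and 1.69 CPM.

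Part of the epithelial list differed between the 2 tumors. Its sum was 11.7 to 25.1 CPM in control, 4254 CPM in HSA replicate 5, 425 CPM in replicate 2, and 62.8 to 604 CPM in the other HSA libraries, and 4 of 5 tested members were called higher (2 to 5 with 1 library left out). In replicate 5, miR-200c had 1569 CPM and miR-141 had 102 CPM. The miR-200 family defines epithelial cells, and most of it was near 0 in the other high tumor. In replicate 2, miR-200c had 7.98 CPM and miR-141 had 0.222 CPM, while miR-200a, miR-200b and miR-429 had no read. HSA replicate 4, with 213 CPM of miR-200c and 108 CPM of miR-429, had no read of miR-202 and 3 of miR-187. The other called members were above their control ranges in every HSA library, not only in these 2 tumors. MiR-203, known from the epidermis, had 331 and 1310 CPM in replicates 2 and 5 and 5.09 to 14.1 CPM in control. In the other HSA libraries it had 20.1 to 167 CPM. MiR-182 had 57.6 and 531 CPM (control 0.436 to 5.43), and miR-183, from the same cluster, had 26.4 and 407 CPM (control 0.408 to 5.17). The other HSA libraries had 11.3 to 43.3 CPM of miR-182 and 7.86 to 36.7 CPM of miR-183.

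The miRNAs of gonad and ciliated or germ cells, a list that leaves out miR-202, stayed at a few CPM in every library. Their sum was 2.77 CPM in HSA replicate 2, lower still in replicate 5, 1.56 to 6.28 CPM in the other HSA libraries and 0 to 0.727 CPM in control. Of the 8 names 4 are in the table, 3 had a read, and 0 passed the filter (0 to 1 were called with 1 library left out). The neural list summed to 480 and 620 CPM in HSA replicates 2 and 5, 152 to 600 CPM in the other HSA libraries and 132 to 356 CPM in control. Of its 3 tested members only miR-129 was called, with 22.8 and 148 CPM in these 2 libraries and 2.47 to 15.0 CPM elsewhere (log2 fold change 3.42, standard error 0.79, adjusted p = 0.00461 from edgeR), a call lost in 6 of the 12 fits that left out 1 library. MiR-137, a neuronal miRNA that was not tested, had 4.43 and 18.4 CPM in them and at most 0.647 CPM elsewhere. MiR-9, the most abundant member of the neural list, did not have this pattern. It had 424 and 415 CPM in HSA replicates 2 and 5 and 141 to 582 CPM in the other HSA libraries. In control it had 129 to 351 CPM, and it was not called (log2 fold change 0.61, standard error 0.37, adjusted p = 0.192 from edgeR).

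The remaining lists did not follow the order of the members across the HSA libraries. The let-7 superfamily, which includes miR-98, was listed as relatives of the other arm of miR-202, not as a tissue marker. Of its 8 tested members 0 were called (0 to 2 lower with 1 library left out). With scaling by library size only, 1 member of this list was called higher. The sum of the list was 100674 and 142863 CPM in HSA replicates 2 and 5 and 146570 to 181953 CPM in control. Of the liver and gut list 4 of 4 tested members were called higher (0 to 4 with 1 library left out), with a sum of 216645 CPM in HSA replicate 3 against 511 and 4359 CPM in replicates 2 and 5. Replicate 3 led this list through miR-122, the main miRNA of liver cells, and was low for both members. Leukocyte miRNAs, of which 4 of 4 were called higher (2 to 4), summed to 3555 and 804 CPM in HSA replicates 2 and 5 and 578 to 3442 CPM in the other HSA libraries. Erythroid miRNAs, of which 1 of 3 was called higher (0 to 1), summed to 9722 and 5709 CPM in these 2 libraries, below the 17288 to 47480 CPM of the other HSA libraries and the 20867 to 29994 CPM of control. The muscle list, of which 0 of 8 were called, was low in replicates 2 and 5 and also in replicates 3 and 4, where neither member exceeded 2.49 CPM. The part of these cell types in the levels of miR-202 and miR-187 was not tested, and in bulk tissue more cells of a type and more RNA per cell cannot be told apart.

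Being at or near 0 in control was common, and a high level in HSA was not. A total of 184 of the 453 mature miRNAs, miR-187 among them, had at most 3 counts in every control library, and 49 of these had a read in HSA. In 30 of the 49 at least 1 HSA library was above the floor, in 6 exactly 2 were, and 0 of the 49 were above it in all 6 HSA libraries. By mean CPM in HSA, miR-187 was second among the 49 with 12.8 CPM, after miR-141 with 19.8 CPM and before miR-205 with 11.7, miR-96 with 5.60 and miR-8908c with 4.64 CPM. Their leading libraries differed: miR-141 and miR-96 were highest in HSA replicate 5, with 102 and 30.2 CPM, miR-205 was at 31.2 and 33.4 CPM in replicates 4 and 5, and miR-8908c was highest in replicate 4 with 16.4 CPM. MiR-202 is outside this class, with 6, 5 and 5 counts in 3 control libraries.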

How the data were processed

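Small RNA was sequenced from FFPE heart tissue of 12 dogs. Per the methods of the study, the authors made NEXTflex libraries (the labels name a QIAseq kit), removed adapters (Cutadapt), mapped the reads with Bowtie to the CanFam3.1 assembly and used HTSeq for counting against miRBase. The authors deposited raw read counts for each pair of mature miRNA and precursor, and the same data as CPM without a composition factor. Recomputed CPM differed from the deposited CPM by at most 0.00499. The table holds 517 entries, and 43 with the same name and counts as another were removed, leaving 474. A mature miRNA with several entries is represented by the one with the highest count. Libraries were grouped by title, and no column was left without a sample. No pair of libraries was alike, since at least 253 mature miRNAs differed between any 2.

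HSA and control were compared across all entries with edgeR 4.0.16 (R 4.3.3), by the quasi-likelihood F test with TMM factors and its default low-count filter, and p-values were adjusted over the 244 entries of 225 miRNAs that passed. Standard errors were derived as the size of the log2 fold change divided by the root of F. Over the tested miRNAs the median log2 fold change was 0.34. Each replicate is 1 dog. DESeq2, the tool of the authors, served as 1 alternative (version 1.42.0). The others were median-of-ratios factors, library size only, no filter beyond 1 read, a mean of at least 10 CPM, all entries, thinning to the smallest library, medians, a floor of 1 count, the replicate block and each library left out. The fit was tested on simulated data. Intervals (Wilson, 95%) are from scipy 1.17.1, and those of a read ratio from the counting error of its log.

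The members and lists were chosen with earlier results of these data known. Named miRNAs are the members, the 5 most like each by Pearson's r, the called or highest members of each list, and the 5 with the highest HSA mean among those with at most 3 counts in every control library. Others (miR-539, miR-758, miR-380, miR-137, miR-499, miR-216a, miR-216b, miR-217, miR-200a, miR-200b, miR-429) were named after their values were seen. The correlations planned between the 2 members, and of each with depth and marker sums, are not given, because the 6 HSA libraries fall into separate clusters of 2 and 4. No reference set of mature miRNA sequences was at hand, so miRNAs with the same seed were not looked for. The paper gives target sequences of both members for its RT-qPCR panel, which are not printed here. The RefSeq table describes another assembly than CanFam3.1 and was used only for gene neighbours. Sequencing dates are not given in the sources used here, and library names follow 1 format in control and another in HSA, so a batch that follows the condition and the condition cannot be told apart.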

Additional observations from a re-analysis of the deposited data

Results flagged for a closer look

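The values of miR-202 and miR-187 in HSA led to their choice, so the position of their highest library is a description. MiR-202 had 4179 CPM in HSA replicate 5, and the gap to the next library was 0.815 of the range (0.689 with scaling by library size only). MiR-187 had 55.5 CPM in HSA replicate 5, with a gap of 0.633 of the range (0.382 with library size only). Dixon's 95% critical value was exceeded by these gaps with TMM, and for miR-187 not with library size only. Because the choice of the members used these values, the comparison with that limit is no test of an outlier.

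Among the 20 sets of 6 list sums (10 lists, in HSA and in control), 5 had 1 library with a gap over Dixon's 95% critical value. That limit is made for normally distributed values. The sums are untransformed CPM and can be strongly skewed, and the lists were chosen with earlier results known. The rate expected by chance is therefore unknown, and the 5 sets are a description. For the epithelial list in HSA it was replicate 5 with 4254 CPM, and for the liver and gut list replicate 3 with 216645 CPM. In control, it was the lowest library of the erythroid list with 20867 CPM and the highest of the endothelial miR-126 with 4213 CPM. It was also the highest of the list of gonad and ciliated or germ cells with 0.727 CPM, which is a few reads.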

How the results depend on the processing

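The log2 ratio of miR-202 between HSA and control, 11.09 by the means, was 2.85 by the medians and 5.35 in an edgeR fit with the replicate block. In the other 7 alternatives that kept all libraries, the log2 ratio of miR-202 ran from 8.95 (thinned to the smallest library) to 11.71 (library size only). The value of 8.95 is a lower bound, because the thinned control level was set to the floor. These shifts are smaller than the SD of the log2 HSA levels with floors, 5.16, which is a wide measure. With 1 library left out the ratio ran from 8.68 (without HSA replicate 5) to 11.35. For miR-187 the lower bound of 5.03 ran from 3.42 (without HSA replicate 5) to 5.29 with 1 library left out. Fitted values of miR-187 are no bounds, since a control group without a read leaves them to the prior: edgeR gave 9.40, or 8.69 with the replicate block, and DESeq2 gave 23.20. Thinned to the smallest library, the bound was 2.96, and with library size only it was 5.77. With a floor of 1 count in place of 3 it was 6.61, so the bound depends on the floor chosen. A ratio of medians could not be given for miR-187.

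The number of called miRNAs was 58, from 24 to 65 with 1 library left out (25, 29, 26, 24 and 38 without control replicate 1, 2, 4, 5 or 6, and 38 without HSA replicate 4), from 55 to 74 in the other alternatives, and 6 with the replicate block. The replicate numbers do not pair the dogs: the correlation of deviations from the group means between same-numbered libraries ran from -0.303 to 0.0832. The cause of these changes was not tested. The number of miRNAs led by HSA replicates 2 and 5 was 45, and 45 or 46 without 1 control library, and 43 with values under the floor set to it, alternatives chosen after seeing the data. Depth limits miR-187 most in HSA replicate 1, the smallest library, where 0 reads have an upper 95% Wilson limit of 1.72 CPM.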
